A study of Acipenser transmontanus and Acipenser medirostris with 18 samples.

Results

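The nuclear-encoded proteins of the mitochondrial respiratory chain and ATP synthase were read from PacBio Iso-Seq counts of sturgeon skin and mucosa, as dissected tissue and in culture. Members were all transcripts whose sterlet protein name contains NADH dehydrogenase [ubiquinone], succinate dehydrogenase, cytochrome b-c1 complex, cytochrome c oxidase subunit, ATP synthase subunit or ATP synthase F(0), whatever the case of the letters. These were 385 of 70537 transcripts and 80 of 13249 PacBio loci, with 54 protein names. Of the loci, 39 belong to complex I, 6 to complex II, 9 to complex III, 10 to complex IV and 16 to complex V. The rule also took in 6 loci of proteins that are not subunits (assembly factors of complex I and a methyltransferase that acts on the c subunit of ATP synthase), which were left out of the shares by complex, leaving 74 loci with 50 names. It chose members by name and used no measured value.

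The respiratory chain sits in the inner mitochondrial membrane. Complexes I and II take electrons from NADH and succinate and pass them to ubiquinone, complex III passes them on to cytochrome c and complex IV to oxygen, while complexes I, III and IV pump protons out of the matrix. ATP synthase, or complex V, lets the protons return through the ring of its membrane part, which turns a shaft inside the catalytic head where ATP is made. A few core subunits of complexes I, III, IV and V are encoded in mitochondrial DNA, and the other subunits, complex II as a whole included, come from nuclear genes. No transcript with the name of a mitochondrially encoded subunit was found, so the values below concern nuclear genes. Sturgeons descend from ancestors that doubled their genome, and 23 of the subunit names occurred at more than 1 locus.

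Each of the 18 libraries was made from polyA RNA. White sturgeon (Acipenser transmontanus) gave 5 epithelial cultures, WM, W12 and W8 from the rim of the mouth and WS1 and WS2 from skin, and 6 tissues with 1 library a site, WB2 (barbel), WA2 (ampullae of Lorenzini), WI1 (upper palate), WM2 (mouth rim), WE1 (esophagus) and WDS1 (dorsal skin). Green sturgeon (Acipenser medirostris) gave 6 epithelial cultures, GA1 and AF from ampullae, IM and IF from the upper palate, MM from the mouth rim and EM from the esophagus, as well as 1 library of fibroblasts and adipocytes, FAF. All are labelled octoploid apart from W12, which is dodecaploid. The sample titles give IM as male and IF as female, and no other title gives a sex. White explants were set before and green explants after trypsin treatment, and all cultures grew in DMEM/F12 medium with fetal bovine serum, Y27632, EGF, hydrocortisone, insulin and transferrin. The labels do not give the fish behind each library, so p-values measure the spread between libraries only. There is no green tissue. The column numbers form 3 sets of 6 libraries, the white cultures with GA1, the other green libraries, and the tissues, so that culture and tissue cannot be told apart from library set.

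Library depth was lowest in WE1, a tissue, with 29797 counts, and highest in AF, a green culture, with 302286. The deepest white culture had 129568. A single count is 0.000331% to 0.00336% of a library. Between 47 (WE1) and 74 (AF) of the 80 loci had at least 1 count. Epithelial marker transcripts, mostly keratins and plakins, made up 4.15% to 19.2% of a tissue library, 4.46% to 10.8% of a white culture and 1.09% to 9.70% of a green one. The 3 muscle names found took at most 0.00234% of any library and the single blood name at most 0.00133%. The 5 immune names, all class II histocompatibility antigens, took 0.0918% to 0.538% of the tissues and at most 0.00207% of the white cultures. In FAF the connective tissue markers reached 3.59%. They stood at 0.768% in GA1 and at most 0.0873% in the other green cultures. The 3 names matched as adipocyte markers were perilipin-2 (1265 counts), perilipin-3 (715) and perilipin-1 (73). They took 0.0180% to 0.0483% of the tissues and 0.0378% to 0.0696% of the white cultures. The green cultures had 0.0608% to 0.160%, with the highest value in GA1. FAF, the library labelled with adipocytes, had 0.123%, inside that green range, so these names do not set adipocytes apart here. The 7 names of mucous secretion took 0.0146% to 0.322% of the tissues, 0.00310% to 0.0189% of the white cultures and 0.00496% to 0.125% of the green ones. In the tests described below, white culture against tissue gave 3 higher and 8 lower of 14 epithelial loci and 2 higher of 3 perilipin loci. It also gave 1 higher of 3 connective tissue loci and 1 lower of 1 immune locus. Green against white culture gave 5 lower of 13 epithelial loci (median log2 fold change -1.08) and 1 higher of 2 perilipin loci. None was called of 3 in connective tissue. The part of these markers in the results was not tested. In such bulk libraries fewer cells of a type and less RNA per cell cannot be told apart.

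As a share of all counts, the subunits were at much the same level in white tissue and white culture and higher in green culture. They made up 1.05 ± 0.409% of the tissue libraries (SD, n = 6), 1.03 ± 0.284% of the white cultures (SD, n = 5) and 1.54 ± 0.215% of the green cultures (SD, n = 6). The means of white tissue and white culture differed by less than either SD. The white cultures stood at 0.659% (WM), 0.931% (WS2), 0.954% (WS1), 1.18% (W8) and 1.42% (W12). The green cultures ran from 1.15% (GA1) over a median of 1.62% to 1.73% (AF). In green culture 5 of 6 libraries lay above every white culture, while GA1, the green library numbered with the white cultures, lay inside the white range. GA1 and AF are both ampullae cultures. The tissues ran from 0.685% (WE1) over a median of 0.925% to 1.83% (WDS1), and FAF had the highest share of all at 1.96% (Wilson 95% interval 1.90% to 2.01%, counting error only). No test was made on these sums.

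**Figure D1:**
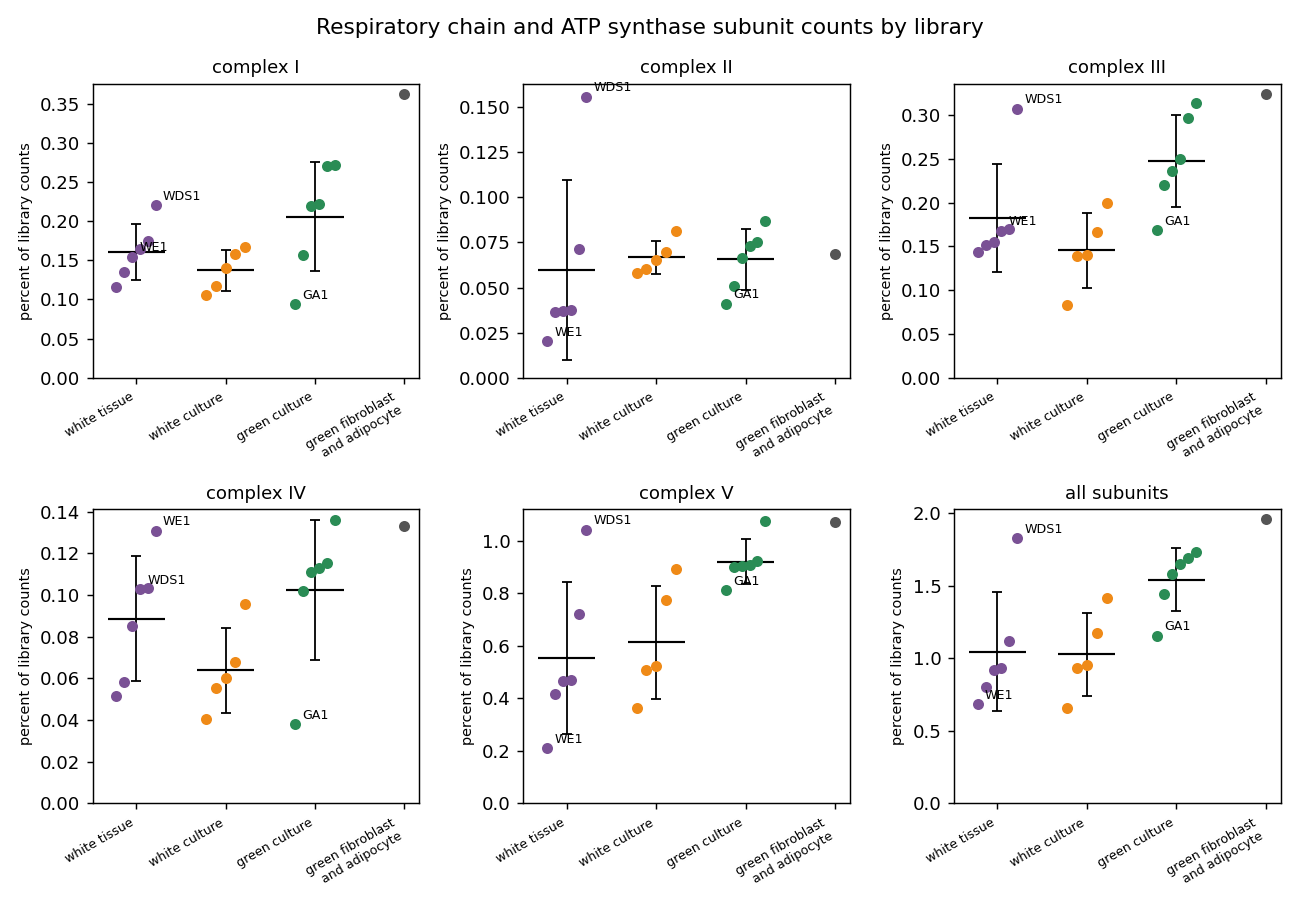
Percent of a library's counts taken by subunits of complexes I to V and by all subunits, 1 point per library, for 6 white tissues, 5 white cultures, 6 green cultures and the green fibroblast and adipocyte library. Horizontal lines are means and bars are SD; GA1 lies below the other green cultures for all subunits (1.15%) and WDS1 above the other tissues (1.83%).

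Among the members, the higher green level lay in complexes I, III, IV and V and not in complex II. Green over white culture the ratio of mean shares was 1.50 for complex I, 1.70 for complex III, 1.61 for complex IV and 1.50 for complex V, against 0.982 for complex II, where the means were 0.0656% and 0.0668% (a ratio of 1.08 with TMM-scaled totals). Complex II is the one complex that also serves the citric acid cycle. Some subunits of these complexes carry other names, are not members and did not follow this. The 75 kDa subunit of complex I, which takes part in oxidising NADH, had 2044 counts at 2 loci, more than any member locus of complex I. It gave 745 to 914 CPM (counts per 1000000 counts of the library) in the white cultures and 508 to 766 CPM in the green ones, with -0.47 ± 0.22 at its tested locus PB.10437 (log2 fold change, SE; edgeR adjusted p = 0.081). Cytochrome c1, a heme subunit of complex III, gave 103.4 to 870 CPM in white and 19.8 to 343 CPM in green, and its tested locus PB.21401 was called lower in green (-2.21 ± 0.80, adjusted p = 0.027). The list of such names had 0 loci higher and 1 lower of 2 tested. With these names and coupling factor 6 counted in, an alternative chosen after seeing the data, the ratios became 1.24 for complex I, 1.40 for complex III and 1.50 for complex V. Complex III then had 2 green cultures above all white ones. In the complexes as the members define them, 5 of the 6 green cultures lay above all white cultures in complexes III, IV and V, 4 in complex I and 1 in complex II. In complexes I, II and IV GA1 lay below every white culture, with 0.0941%, 0.0411% and 0.0381%. In complexes III and V it lay inside the white range, with 0.169% and 0.812%. The 5 cultures of the other library set, IM, MM, EM, IF and AF, thus carried the difference in shares. Within the set that holds both species there is a single green library, so species and set cannot be told apart for the shares.

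Between white culture and white tissue the ratio of mean shares was 0.855 for complex I, 1.12 for complex II, 0.796 for complex III, 0.720 for complex IV and 1.11 for complex V, and the ranges overlapped in each. With TMM-scaled totals the values above 1 for complexes II and V became 0.989 and 0.976. Over all subunits the ratio was 0.982, and 0.871 with TMM-scaled totals. ATP synthase was the largest complex in every library, with 30.9% (WE1) to 70.4% (GA1) of the subunit counts. WE1 differed in make-up from the other tissues: complexes III and IV held 24.5% and 19.1% of its subunit counts, although these rest on 204 counts in all. White libraries of both kinds came from the mouth rim and from skin. The skin tissue is labelled dorsal and the skin cultures carry no region, so their sites may differ. At the mouth rim the 3 cultures, at 0.659% (WM), 1.18% (W8) and 1.42% (W12, the dodecaploid), lay on both sides of the tissue at 0.917%. For skin both cultures, at 0.931% and 0.954%, lay below the tissue at 1.83%.

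Dorsal skin was the highest tissue in complexes I, II, III and V. WDS1 had 0.156% for complex II, where the others had 0.0201% to 0.0715%, and 0.307% for complex III, where the others had 0.144% to 0.170%. Of the 25 member loci that could be tested in white sturgeon, 18 had their highest tissue value in dorsal skin. How many of all features peak there was not counted, so the 18 cannot be called many or few. These values are plain CPM, and the TMM factor of WDS1 was 1.13, against 0.748 (WE1) to 1.04 (WM2) in the other tissues. Other mitochondrial proteins also had high plain shares in this library. Mitochondrial ribosomal proteins stood at 0.487% against 0.171% to 0.238% in the other tissues, import and inner membrane proteins at 0.444% against 0.158% to 0.228%, and carriers and porins at 0.781% against 0.315% to 0.390%. Perilipins of WDS1 were at 0.0483% against 0.0180% to 0.0332% in the other tissues. Its connective tissue markers were at 0.0545% against 0.0268% to 0.134% and its muscle markers at 0.00234%. The part of these 3 lists was not tested. The subunits outside the name rule stood at 0.307% against 0.1003% to 0.137%. Of these, cytochrome c1 had 2506 CPM in WDS1 and 268 to 544 CPM in the others. The 75 kDa subunit of complex I went the other way, with 498 CPM in WDS1 and 544 to 901 CPM in the others. Without WDS1 the tissue mean of all subunits fell to 0.890%.

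To ask which loci differed between dissected tissue and epithelial culture, white cultures were compared with white tissues. The paper describes disruption of dissected white tissue in lysis buffer, with no separation of the epithelium stated. The tissue libraries may thus hold other cells. The comparison used edgeR's quasi-likelihood test at a Benjamini-Hochberg false discovery rate (FDR) of 0.05 over all 1861 features that passed the low-count filter. Of the 80 member loci 25 passed the filter. None was called higher in culture, where 27.5% of all features were, and 8 (32%) were called lower, where 29.6% of all features were. At an unadjusted p under 0.05 the number higher was also 0, as it was with DESeq2. The median log2 fold change was -0.36 over the members and -0.05 over all features. Without the filter it was -0.35 over 79 member loci and -0.28 over all features, with 0 member loci called higher and 11 lower. Loci can pass the filter through the group where they are high, so the gap between the medians depends on the filter. Groups did not overlap at 4 of the 25 loci, against 34.4% of all features. Called lower were 2 loci of complex I, 2 of complex III, 1 of complex IV and 3 of complex V, and none of the 3 tested in complex II. Scaling by library totals alone, without the TMM factors, moved the median of all features to 0.26 and the split of calls from 512 higher and 550 lower to 598 and 403; 0 member loci were then called higher and 6 lower. Cytosolic ribosomal proteins moved further than the chain in the same comparison, with 52 of 63 loci called lower and a median of -2.39.

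The locus with the largest difference was PB.1911, the lesser of 2 loci for ATP synthase subunit alpha, which builds the head of the enzyme together with beta. It gave 10.3, 32.1, 34.8, 38.6 and 44.4 CPM in the 5 white cultures. The tissues had 137 CPM in WB2 as their lowest value, a median of 260 and 545 CPM in WDS1 as their highest. All tissues lay above all cultures. The log2 fold change was -3.39 ± 0.45 (SE; edgeR quasi-likelihood test, adjusted p = 1.87e-05), and it stayed between -3.59 and -3.14 when 1 library was left out. The main alpha locus, PB.766, took 703 to 1810 CPM in culture and 201 to 1689 in tissue, with a log2 fold change of 0.11 ± 0.42 (adjusted p = 0.835). PB.1911 accordingly held 1.45% to 4.63% of the alpha counts in white culture, 0.760% to 6.50% in green culture and 10.1% (WB2) to 57.1% (WE1, 8 of 14 counts) in the tissues. For the alpha counts of both loci together the log2 fold change was -0.29 (adjusted p = 0.543).

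PB.23700 encodes subunit B1, part of the stalk that holds the head of ATP synthase against the turning shaft. Its 5 white cultures stood at 66.7, 82.7, 108, 112 and 113 CPM. The tissues ran from 201 CPM (WB2) over a median of 350 to 606 CPM (WI1). All tissues were above all white cultures (log2 fold change -2.20 ± 0.39, SE; edgeR adjusted p = 0.00021). In the green cultures the same locus had 164 CPM in GA1, a median of 370 and 689 CPM in IF. All green cultures, GA1 included, were above all white cultures, with a log2 fold change of 1.96 ± 0.36 (edgeR adjusted p = 0.00032). Both comparisons rest on the same 5 white cultures. No second locus has this name.

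In complex I the loci lower in culture were PB.9520 and PB.7096. PB.9520 encodes flavoprotein 3, an accessory subunit of the part that oxidises NADH, and had 26.1, 44.4, 48.1, 69.5 and 82.7 CPM in the white cultures. Its tissues ran from 87.6 CPM (WM2) over a median of 133 to 168 CPM (WE1), above every culture by a small margin (log2 fold change -1.58 ± 0.38, SE; edgeR adjusted p = 0.0023). With mouth rim and skin only, PB.9520 did not pass (edgeR adjusted p = 0.146). The green cultures, at 59.7 to 83.6 CPM, lay nearer to the white cultures than to the tissues, and PB.9520 did not pass the filter in the comparison of the species. PB.7096, for the accessory subunit alpha 9, had 48.1 to 99.998 CPM in culture and 67.1 to 233 in tissue, which overlap (-1.09 ± 0.37, adjusted p = 0.017). Its call was lost without W12 or W8, at an adjusted p of up to 0.057, and was kept under 5 of 9 other settings. PB.10317, for the accessory subunit alpha 10 and the member locus of complex I with the most counts, had 145 to 497 CPM in white culture and 201 to 580 CPM in tissue (-0.29 ± 0.44, adjusted p = 0.582).

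In complex III the core protein subunit 1 and the Rieske protein were lower in culture. PB.17613, subunit 1, had 155, 332, 411, 513 and 634 CPM in the white cultures. Its tissues ran from 653 CPM (WM2) over a median of 828 to 1168 CPM (WDS1), so that a small margin separated the groups (log2 fold change -1.38 ± 0.38, SE; edgeR adjusted p = 0.0058). The call was lost without a filter and with mouth rim and skin only, at an edgeR adjusted p of up to 0.092. Subunit 2, PB.13752, its partner in the core of the complex, gave 476 to 1262 CPM in culture and 403 to 1308 in tissue (0.12 ± 0.36, adjusted p = 0.806). PB.15107, the main locus of the Rieske iron-sulfur protein, which carries electrons towards cytochrome c1, had 33.3 to 93.1 CPM in culture and 77.3 to 241 in tissue (-1.56 ± 0.38, adjusted p = 0.0022). WM at 93.1 CPM was the culture that reached into the tissue range. PB.15107 and the loci named in this way from overlapping groups were picked after their values were seen, because all called loci are few.

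Cytochrome c oxidase subunit 4 is the largest nuclear subunit of complex IV, and in mammals its isoform 2 is found mainly in lung and rises at low oxygen. Here isoform 2, PB.19791, held 343 counts and the 2 loci of isoform 1 together held 30 and 10. Isoform 2 had 72.4, 77.2, 99.998, 136 and 165 CPM in the white cultures. The tissues spread widely, with 38.9 CPM in WDS1, 122 in WB2, 186 in WA2, 446 in WM2, 516 in WI1 and 571 in WE1. Mouth rim, palate and esophagus were thus high, and dorsal skin, which was high in most other members, was below every white culture. The log2 fold change was -1.83 ± 0.59 (SE; edgeR adjusted p = 0.015), and -1.04 with mouth rim and skin only, where it did not pass (adjusted p = 0.196). The other complex IV loci tested had log2 fold changes from -0.49 (subunit 5A) to 0.51 (subunit 6A) and were not called.

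Most other members of ATP synthase showed no difference past the threshold. The loci with the most counts of all members, PB.10543 and PB.12028, both encode the catalytic subunit beta. PB.10543 had 993 to 2794 CPM in white culture and 369 to 3464 in tissue (log2 fold change -0.16 ± 0.46, SE; edgeR adjusted p = 0.799), and PB.12028 had 858 to 2728 and 201 to 2569 (0.26 ± 0.49, adjusted p = 0.675). The shaft subunit gamma gave -0.26 at PB.13309 and 0.48 at PB.7266. Subunit C3 is made by one of several genes for the same ring protein, and its locus PB.10503 was called lower at -0.999 ± 0.38 (adjusted p = 0.033). That call was lost under 7 of 9 other settings and in 4 of 11 fits without 1 library.

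**Figure D2:**
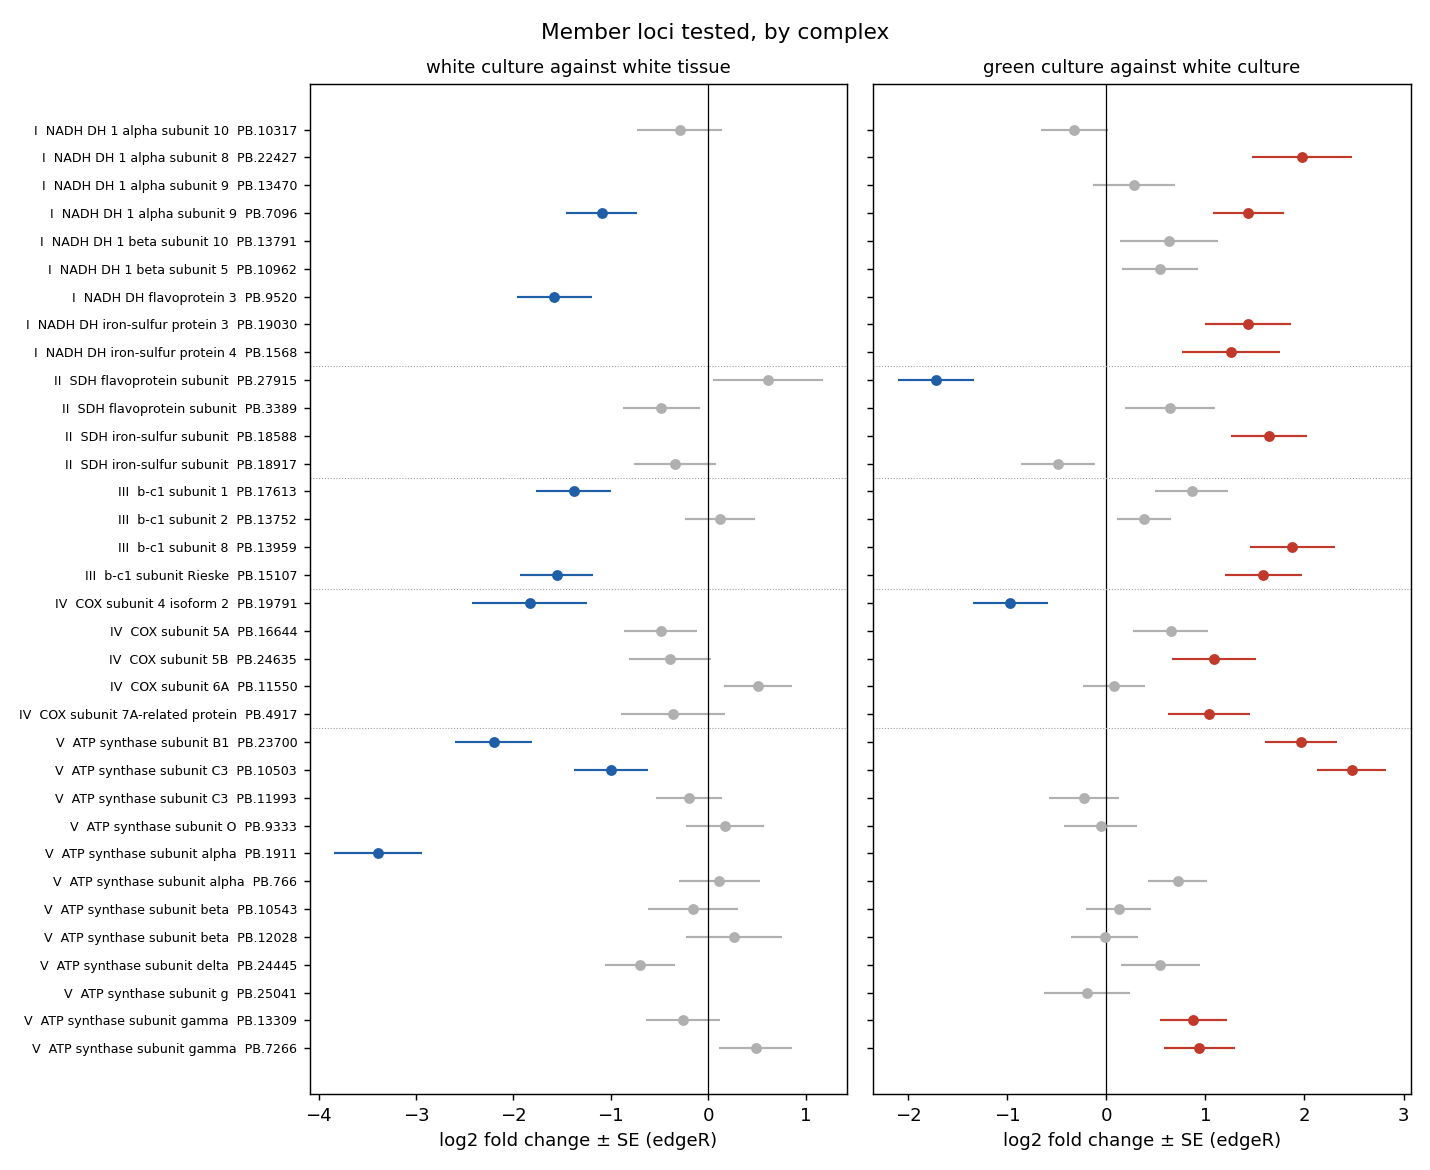
Log2 fold change with SE from edgeR for each member locus that passed the filter on low counts, ordered by complex, for white culture against white tissue (left, 25 loci) and green against white culture (right, 32 loci). Red marks loci called higher, blue loci called lower and grey loci not past an FDR of 0.05: 0 higher and 8 lower on the left, 13 higher and 2 lower on the right.

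The comparison of green with white cultures sets the species side by side, both grown as epithelium. The sites differ too: white cultures came from mouth rim and skin, and among the green ones only MM came from the mouth rim. Trypsin treatment also differed and, apart from GA1, so did the library set. Species cannot be told apart from these in the shares above or in the calls below. Of 2125 features tested, 32 were member loci. In green culture 13 of them (40.6%) were called higher, where 27.7% of all features were, and 2 (6.25%) lower, where 29% of all features were. The share called in either direction was 46.9% of members and 56.8% of all features. The median log2 fold change was 0.64 over the members and 0.11 over all features, and 24 of the 32 loci had a positive value. Groups did not overlap at 5 of 32, against 37.5% of all features. Called higher were 4 of the 8 loci tested in complex I, 1 of 4 in complex II, 2 of 4 in complex III, 2 of 5 in complex IV and 4 of 11 in complex V. Without AF 7 of 27 loci tested were called higher, without WM or WS2 8 of 33, and without GA1 15 of 31. PB.13959, PB.1568, PB.19030 and PB.22427, all called higher, passed the filter in only 6 of the 11 fits without 1 library. Leaving out a green culture other than GA1 left 26 to 28 loci tested. Loci can pass the filter through the group where they are high. The numbers called higher and the median thus depend in part on the filter. Of the 13 loci called higher, GA1 lay above all white cultures at 3, inside their range at 8 and below them all at 2, whereas the other 5 green cultures were above all white cultures at 12 of the 13. The 13 loci were picked by a fit that holds the same 5 cultures, so this separation follows in part from the choice. Counts of this kind were not made over all features. Those 3 loci, PB.10503, PB.18588 and PB.23700, are those where GA1, the 1 green library of the set with both species, lay above all 5 white cultures. Of all 32 loci tested, GA1 lay above the white cultures at 4, the fourth being PB.766, inside their range at 17 and below them all at 11. Among these 11 are both loci called lower, PB.27915 and PB.19791, and 2 of those called higher, PB.19030 and PB.24635.

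Subunit C3 of ATP synthase had the largest difference of all members. PB.10503 gave 51.7, 72.2, 88.9, 108 and 131 CPM in the white cultures. The green cultures ran from 261 CPM (GA1) over a median of 560 to 767 CPM (AF). The groups were well apart (log2 fold change 2.48 ± 0.35, SE; edgeR adjusted p = 3.16e-05), and the value stayed between 2.35 and 2.70 when 1 library was left out. At the second C3 locus, PB.11993, the green cultures had 82.1 to 302 CPM and the white cultures 104 to 239 (-0.23 ± 0.35, adjusted p = 0.603). Both loci together gave 1.38 (adjusted p = 0.0013).

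The green libraries also held another main transcript of PB.10503, which has 16 matching transcripts. Transcript PB.10503.7 was chosen for description after the values were seen. It held 0 of 5 counts of the locus in WM, 2 of 14 in WS1, 0 of 8 in WS2, 1 of 15 in W12 and 0 of 9 in W8. In the green cultures it held 14 of 35 in GA1, 42 of 60 in IM and 61.0% to 64.2% in the other 4. In the white tissues it was seen at 0 to 2 counts a library. FAF, the green library of another cell type, had it at 50.4%. GA1, at 104.5 CPM, was above every white library, the highest of which was WE1 with 33.6 CPM from 1 count. The other transcripts of the locus together also lay higher in green, at 145 to 278 CPM against 51.7 to 122 in the white cultures. A change of main transcript was not particular to this locus. At PB.3389, transcript PB.3389.5 held 53.3% of the pooled counts in green culture and 1.94% in white culture. At others, such as PB.766, the main transcript was the same in both. How many loci differed in this way was not counted.

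**Figure D3:**
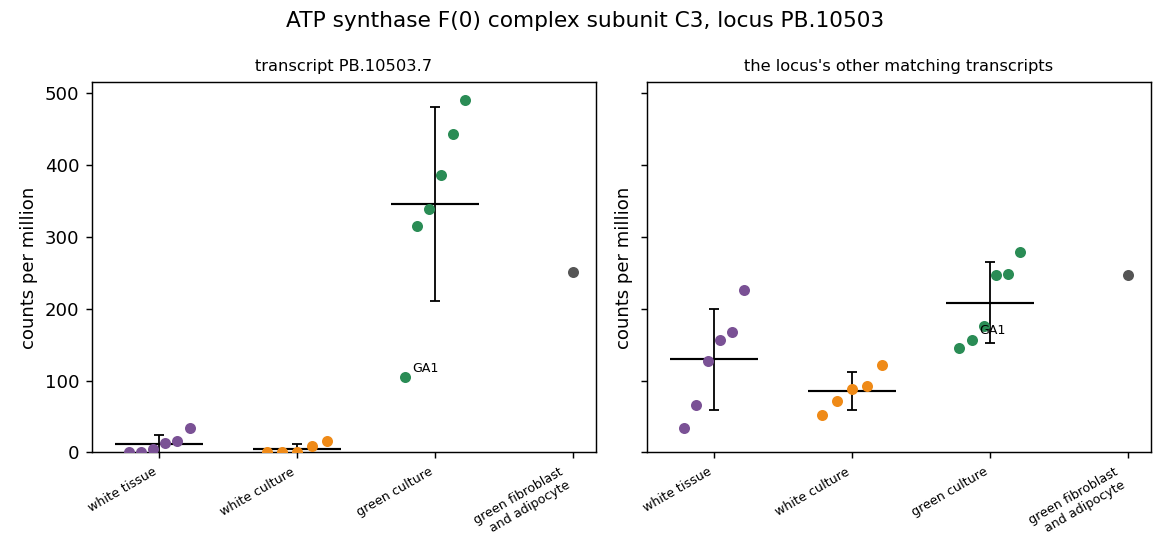
Level of transcript PB.10503.7 (left) and of the other matching transcripts at the same ATP synthase C3 locus (right), in CPM, 1 point per library, with mean and SD per group. PB.10503.7 lies at 104.5 to 490 CPM in the green cultures and at 0 to 33.6 CPM in the 11 white libraries.

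The shaft of ATP synthase and the main alpha locus were also higher in green. Subunit gamma was called at both its loci, PB.13309 (216.6 to 617 CPM in white, 381 to 1151 in green; log2 fold change 0.88 ± 0.34, SE; edgeR adjusted p = 0.039) and PB.7266 (165 to 418 in white, 217 to 883 in green; 0.94 ± 0.36, adjusted p = 0.034). GA1 was inside the white range at both. Without 1 library these calls were kept in 6 and 7 of 11 fits. Subunit alpha at PB.766 had 703, 795, 1111, 1572 and 1810 CPM in white culture and 1897 (IF) to 2603 CPM (AF) in green. All green cultures were above all white ones, but the test missed the threshold (0.72 ± 0.30, adjusted p = 0.053). The beta loci PB.10543 and PB.12028 had values of 0.12 ± 0.33 and -0.02 ± 0.34, and the stalk protein subunit O, PB.9333, -0.06 ± 0.37.

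In complex II 1 locus was called lower in green and 1 higher. The flavoprotein subunit carries the FAD that oxidises succinate. Its locus PB.27915 had 225, 331, 340, 362 and 389 CPM in the white cultures. The green cultures ran from 33.1 CPM (AF) over a median of 130 to 171 CPM (IF). All green cultures were below all white cultures (log2 fold change -1.72 ± 0.39, SE; edgeR adjusted p = 0.0015). The other main locus, PB.3389, had 123 to 289 CPM in white and 82.1 (GA1) to 556 CPM (AF) in green (0.64 ± 0.46, adjusted p = 0.240). Summed over the name, the flavoprotein gave -0.32 ± 0.30 (adjusted p = 0.369). The summed level was 463 to 578 CPM in the white cultures. GA1, IF, IM and EM, at 231, 309.98, 314 and 427 CPM, lay below all of them, and AF and MM, at 589 and 669 CPM, above. GA1 was thus low at both loci and AF low at PB.27915 only. A minor locus, PB.27928, had 7 counts, all in tissue.

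The iron-sulfur subunit, which hands the electrons on, was called higher at its main locus. PB.18588 had 16.0, 23.2, 51.7, 60.9 and 66.7 CPM in the white cultures. The green cultures had 106 CPM in AF, a median of 124 and 212 CPM in IF, all above the white cultures (log2 fold change 1.64 ± 0.39, SE; edgeR adjusted p = 0.0023). Its other locus, PB.18917, had 72.2 to 167 CPM in white and 36.4 to 143 in green (-0.49 ± 0.38, adjusted p = 0.277), and the sum over both gave 0.54 ± 0.33 (adjusted p = 0.168). In the membrane anchor only the small subunit was named, PB.25044, with 2 counts in all.

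The proportions within pairs of loci do not depend on library totals. PB.18917 held 66.7% to 81.8% of the iron-sulfur counts in each white culture and 25.6% to 40.4% in each green culture, GA1 at 29.2%, and 22.2% to 100% in the tissues, the last from 3 counts. PB.27915 with PB.27928 held 43.8% to 73.3% of the flavoprotein counts in white culture and 5.62% to 64.5% in green, where GA1 and IF (55.3%) were high and lay inside the white range. For C3, PB.11993 held 55.9% to 75.0% in white and 15.3% to 38.1% in green culture. For the Rieske protein, PB.18246 held 25% to 66.7% and 16.7% to 33.3%. For beta, PB.12028 held 46.4% to 53.5% in white culture, 44.8% to 52.8% in green culture apart from AF at 36.0%, and 32.9% (WA2) to 47.6% in tissue, below 50% in every tissue. Pairs were not tested. How the alignment to sterlet divided the reads of each species between loci of like sequence was not tested.

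**Figure D4:**
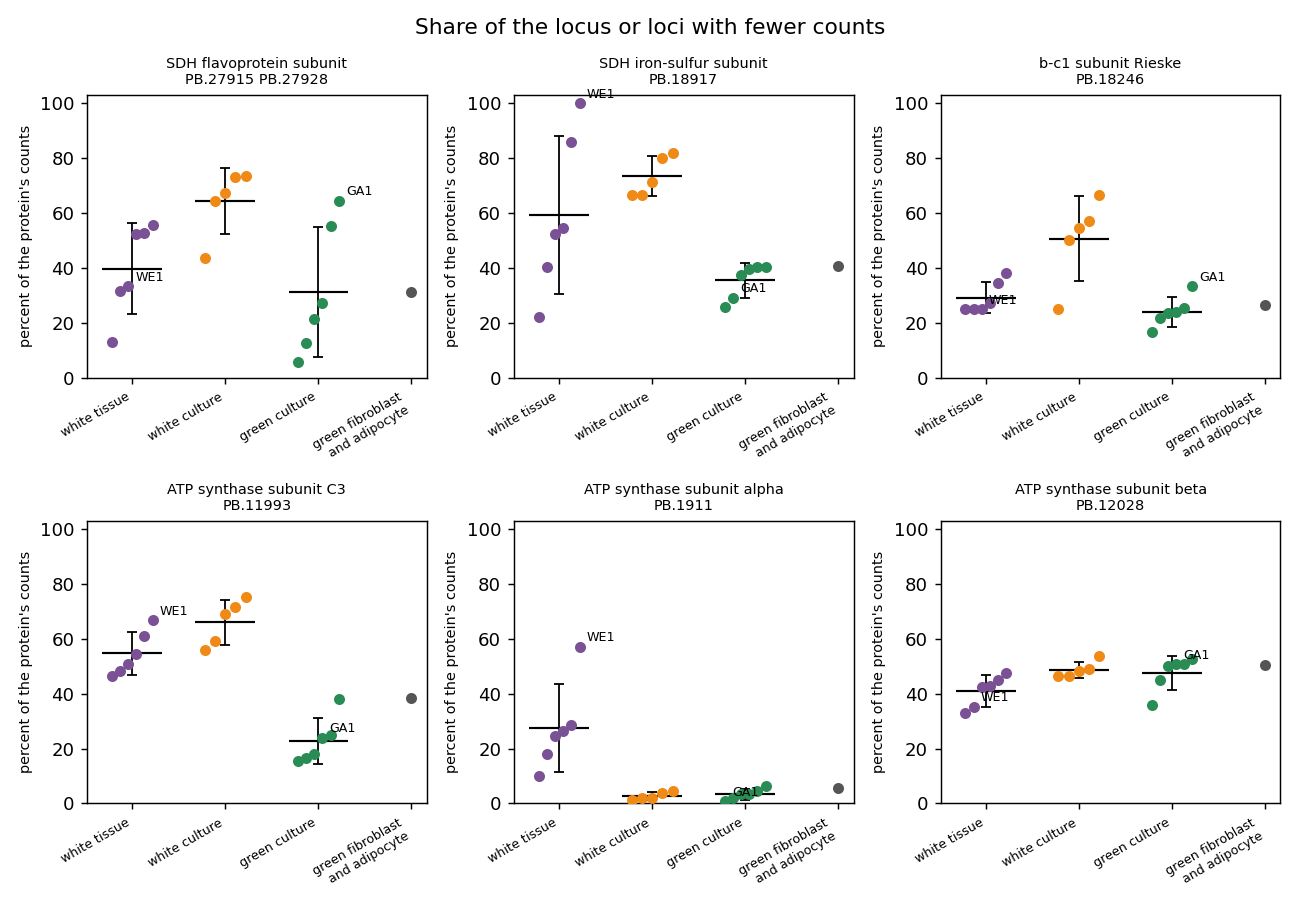
Share of a protein's counts held by the locus or loci with fewer counts in all, named under each protein, 1 point per library with mean and SD per group. White and green cultures do not overlap for the succinate dehydrogenase iron-sulfur subunit and ATP synthase C3, tissue is above both cultures for ATP synthase alpha (10.1% or more), and for beta the share runs from 32.9% (WA2) to 53.5% (W8).

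In complex I the green cultures were higher at the alpha 8 subunit PB.22427 (log2 fold change 1.98 ± 0.51, SE; edgeR adjusted p = 0.0040), at alpha 9 PB.7096 (1.43 ± 0.36, adjusted p = 0.0032) and at iron-sulfur proteins 3 and 4. The second alpha 9 locus, PB.13470, was not called (0.28 ± 0.42, edgeR adjusted p = 0.589). Both alpha 9 loci together gave 1.12 ± 0.33 (edgeR adjusted p = 0.0099). Iron-sulfur protein 3, PB.19030, is a core subunit of the arm that reaches into the matrix. It had 44.4 to 72.2 CPM in white culture, 129 to 290 CPM in IM to AF and 37.3 CPM in GA1, which is below all white cultures (1.43 ± 0.43, adjusted p = 0.010). Iron-sulfur protein 4, PB.1568, whose loss in humans impairs assembly of the complex, had 0 to 52.2 CPM in white, 86.0 to 146 in those 5 cultures and 22.4 in GA1 (1.26 ± 0.50, adjusted p = 0.041), and 3 of the 6 fits without 1 library in which it passed the filter kept the call. PB.10317 (alpha 10) had 177 to 380 CPM in green (-0.32 ± 0.34, adjusted p = 0.431).

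In complex III the Rieske locus PB.15107 had 33.3 to 93.1 CPM in the white cultures, 159 to 237 CPM in IM to AF and 59.7 in GA1 (log2 fold change 1.59 ± 0.39, SE; edgeR adjusted p = 0.0027). Subunit 8, PB.13959, a small protein next to cytochrome b, showed the same layout, with 8.70 to 56.2 CPM in white, 126 to 158 CPM in the 5 and 44.8 in GA1 (1.88 ± 0.43, adjusted p = 0.0018). The core proteins did not pass: subunit 1 PB.17613 gave 0.86 ± 0.36 (adjusted p = 0.056) and subunit 2 PB.13752 gave 0.38 ± 0.27 (adjusted p = 0.246). In complex IV subunit 5B, PB.24635, had 72.2 to 191 CPM in white, 232 to 522 CPM in the 5 green cultures and 67.2 in GA1 (1.08 ± 0.42, adjusted p = 0.040). The subunit 7A-related protein, PB.4917, which in mammals helps to join complexes III and IV, gave 1.04 ± 0.42 (adjusted p = 0.044). At PB.4917 GA1, at 74.7 CPM, was inside the white range of 41.4 to 178 CPM. Without 1 library the call was kept in 6 of 11 fits for PB.24635 and in 5 of 11 for PB.4917.

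Subunit 4 isoform 2, PB.19791, was the second locus called lower in green. Its green cultures had 23.2 (AF) to 102 CPM (EM), with a median of 56.8, against 72.4 to 165 CPM in the white cultures. The ranges overlapped (log2 fold change -0.97 ± 0.38, SE; edgeR adjusted p = 0.040), and the call was kept in 2 of the 9 fits without 1 library and 3 of 7 other settings. The mean level was 62.0 CPM in green culture, 110 CPM in white culture and 313 CPM in white tissue. Green tissue was not sequenced, so whether the green cultures also lie below their tissue of origin is not known.

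**Figure D5:**
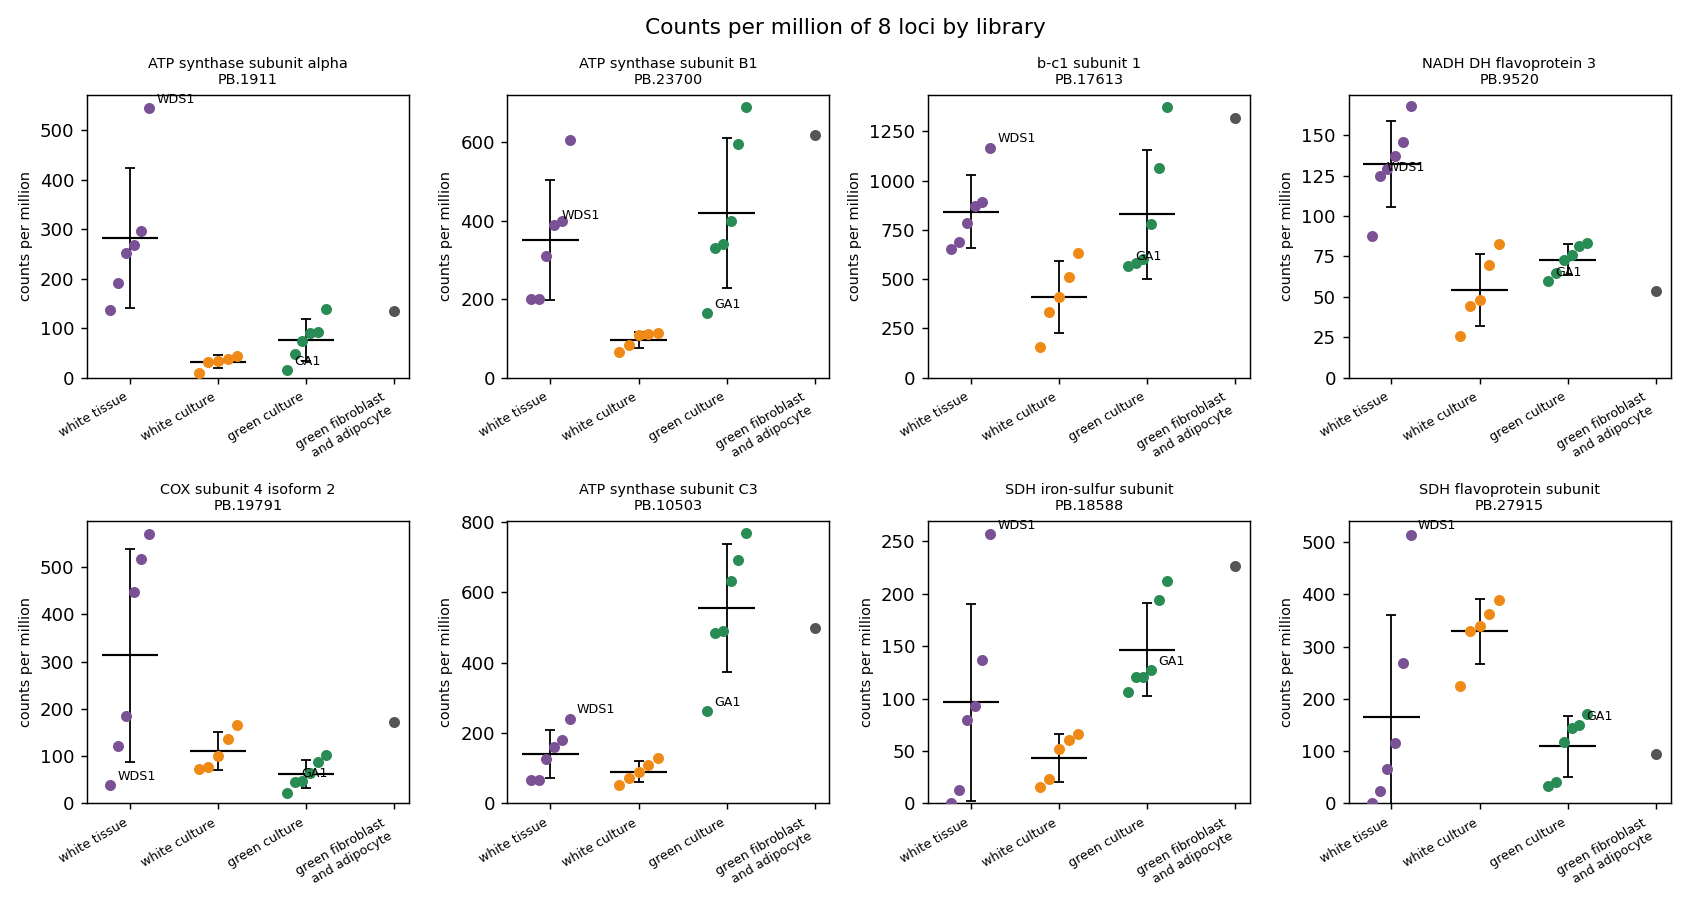
Levels of 8 loci in CPM, 1 point per library with mean and SD per group. ATP synthase alpha PB.1911, b-c1 subunit 1 PB.17613 and flavoprotein 3 PB.9520 lie lower in white culture than in tissue, subunit B1 PB.23700 is lowest in white culture, C3 PB.10503 and the iron-sulfur subunit PB.18588 lie higher in green than in white culture and the flavoprotein subunit PB.27915 lower.

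Of the 23 member loci tested in both comparisons, 5 were called in both. Of all features, 57.1% were called against tissue and 56.8% between the cultures, and the share called in both was not counted. PB.23700, PB.10503, PB.15107 and PB.7096 were called lower in white culture than in tissue and higher in green than in white culture, and PB.19791 was lower in both. The 2 comparisons share the white cultures, so a low value there enters both. The other 46 loci tested in neither comparison had 2 to 207 counts each over all libraries.

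Other nuclear genes for mitochondrial proteins gave the following in the same fits. For green against white culture, mitochondrial ribosomal proteins had 4 loci called higher and 1 lower of 18 (median log2 fold change 0.66), carriers and porins 4 and 1 of 10 (0.52) and import and inner membrane proteins 5 and 3 of 13 (0.23). Among the mitochondrial ribosomal loci, PB.13892 carries the name nucleoside diphosphate kinase 3, not that of a ribosomal protein. It was not called in either comparison. Cytosolic ribosomal proteins had 11 higher and 1 lower of 54 (0.60). The electron carriers cytochrome c and the electron transfer flavoproteins had 1 higher of 3 (0.17), the one called being cytochrome c (PB.11983, 1.77 ± 0.46, adjusted p = 0.0047). The subunits outside the name rule, given above, had a negative median, with 0 higher and 1 lower of 2 (-1.34). For white culture against tissue, the subunits outside the rule had none called of 2 (-0.58), the electron carriers none of 2 (-0.85), the mitochondrial ribosomal proteins had 1 higher and 0 lower of 10 (-0.22), carriers and porins 1 and 5 of 10 (-0.40) and import proteins 1 and 4 of 9 (-0.54). GA1 was below the other green cultures in mitochondrial ribosomal proteins (0.240% against 0.329% to 0.468%) and in cytosolic ones (0.747% against 1.41% to 1.85%) as it was in the chain, but not in the subunits outside the rule (0.0769% against 0.0648% to 0.111%). Whether this and its connective tissue markers bear on its low values was not tested.

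The green fibroblasts and adipocytes, a single library with no replicate, had more complex I than any other library, 0.362% against 0.0941% to 0.272% in the green epithelial cultures. Much of that lay at PB.10317, the alpha 10 subunit, with 983 CPM (Wilson 95% interval 867 to 1116) against 177 to 380 CPM in the 6 epithelial cultures. The beta 5 subunit at PB.16092 had 209.9 CPM (160 to 276) against 37.3 to 98.6. Subunit 4 isoform 2, PB.19791, had 173 CPM (128 to 234) against 23.2 to 102. Of the 80 member loci, these were the 3 whose interval lay outside the range of the green cultures, and none lay below it. At many loci that range starts at the GA1 value or at no counts, which leaves little or no room below it. The share of all features outside that range was not counted, so the 3 cannot be called many or few. The difference concerns 1 library and has no replicate check.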

How the data were processed

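The table deposited by the authors gives raw counts of full-length Iso-Seq reads, as whole numbers, for each transcript in 18 libraries. The authors processed reads with IsoSeq3 3.4.0, aligned them to the sterlet genome (build ASM1064508v1; the aligner is not given in the sources used here), filtered transcripts with Sqanti3 4.1 at a minimum of 3 supporting reads and named proteins with blastp 2.14.1. Each read stands for 1 cDNA, so counts were not divided by length. The authors amplified the cDNA by PCR and cleaned it with beads. Whether cDNA length affected the counts, between proteins or between libraries, was not tested. Amplified cDNA without molecular identifiers is not independent, and intervals cover counting error only. All columns were mapped to a sample.

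Matching transcripts were summed by locus and kept apart from other transcripts of that locus. Shares are percent of all counts of a library, unnamed transcripts included. Unnamed transcripts took 1.59% to 2.93% of the white cultures and 2.67% to 4.57% of the green ones. They took 2.85% of FAF and 4.07% (WB2) to 34.8% (WE1) of the tissues, and their part in the shares was not tested. For tests of loci, edgeR 4.0.16 was run under R 4.3.3 (limma 3.58.1) using TMM, filterByExpr, glmQLFit and glmQLFTest at FDR 0.05 over all features. CPM are plain, without TMM. DESeq2 1.42.0 was an alternative, with library totals, other filters, whole loci, sums by name, FDR 0.01, covariates and left-out libraries. Python 3.11.15 (pandas 2.3.3, scipy 1.17.1) made the rest. The fits were tested on simulated data with 160 of 1641 features changed for white culture against tissue and 154 of 1850 for green against white. Of edgeR's calls 3.11% and 5.7% were false, of DESeq2's 3.12% and 7.5%. Each recovered at least 96.1% of the changed features. How recovery depends on the size of the log2 fold change was not tested. In the real data 57.1% and 56.8% of features were called, so the simulation cannot show how the scaling behaves under such wide change.

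Named loci are up to 8 per direction and comparison that pass FDR 0.05 with no overlap of the groups in CPM, taken by size of change, the 10 with most counts, the top locus of each complex, all succinate dehydrogenase loci, and isoforms known from mammals as restricted to tissues or set by oxygen. Members and lists were chosen with earlier results of these data known. The list of subunits the rule misses, such as the 75 kDa subunit of complex I and cytochrome c1, was added after the names were seen.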

Additional observations from a re-analysis of the deposited data

Results flagged for a closer look

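A library far from the others of its group was looked for in the shares of the complexes and in the named loci with at least 100 counts, over 72 groups, of which chance flags about 1 in 20; 5 were found. GA1 had 0.0381% for complex IV, where the other green cultures had 0.102% to 0.136%. The other 4 were WDS1, the dorsal skin: complex III at 0.307% against 0.144% to 0.170% in the other tissues, subunit 2 of complex III (PB.13752) at 1308 CPM against 403 to 580.1 CPM, the succinate dehydrogenase iron-sulfur subunit at PB.18917 at 280.2 CPM against 26.5 to 101 CPM, and the flavoprotein subunit at PB.3389 at 483 CPM against 67.1 to 215 CPM.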

How the results depend on the processing

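For white culture against tissue, 8 member loci lower became 5 with the mouth rim and skin only and 5 at FDR 0.01, and 0 higher became 1 with the whole locus and 1 with the replicate number as a block. Without 1 library there were 5 to 9 lower and 0 to 1 higher. For green against white culture, 13 higher became 21 without a filter and 7 at FDR 0.01, and 2 lower became 1 with library totals without TMM, without a filter, with the replicate block, with the batch label (the barcode number the labels give) as a covariate, without GA1, without W12 and at FDR 0.01, and 0 when summed over the protein name. Without 1 library there were 7 to 15 higher and 1 to 2 lower. The replicate block gave 1 higher and 6 lower for the first comparison and 14 and 1 for the second. Deviations of libraries with the same number had correlations of -0.26 to 0.05 and -0.15 to 0.18 over 5 pairs each. Libraries with different numbers reached -0.368 (WM with AF) and 0.306 (WM with WM2). Such values cannot decide whether libraries with the same number share a fish or a preparation. The causes were not tested.

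The log2 fold changes that turned were all of loci that were not called. Against tissue they were PB.10317, 0.054 without TMM and 0.11 with mouth rim and skin only; PB.10543, 0.092 with DESeq2, 0.10 without TMM, 0.17 with the block and 0.061 with the batch label; PB.12028, -0.21, and PB.766, -0.25, with mouth rim and skin only; PB.13309, 0.073 without TMM; PB.18917, 0.15 with the block. Leaving out 1 library moved PB.10543 from -0.35 to 0.048, PB.13752 from -0.076 to 0.32 and PB.766 from -0.091 to 0.30. Between the cultures PB.10317 gave 0.094 with the batch label, and PB.12028 gave 0.12 without TMM, 0.26 without a filter, 0.047 with the block, 0.26 with the batch label, 0.21 without W12 and -0.16 to 0.33 without 1 library. Counting in the subunits that the name rule misses, chosen after seeing the data, moved complex I to 0.219% in white culture and 0.226% in tissue and complex III to 0.259% in tissue. The shares of the complexes otherwise moved by less than 1 SD under the alternatives run. WE1, with 29797 counts and 204 subunit counts, limits what can be said of the esophagus, and 46 loci had too few counts to be tested in either comparison.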
